A study of Mus musculus with 6 samples.

Results

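The potassium channel genes of the mouse are the rows of the deposited gene table whose symbol begins with Kcn. Of 25703 genes in the table, 86 had such a symbol, and 4 antisense or opposite-strand transcripts with names ending in os, with or without a number, were left out. The remaining 82 genes comprised 32 pore subunits of voltage-gated channels, 14 inward rectifiers, 12 two-pore channels, 8 calcium-activated channels with their sodium-activated and pH-regulated relatives, 15 accessory subunits and the non-coding RNA Kcnq1ot1. Membership rested on the symbol alone, and no measured value entered it. The RNA was that of the proximal incisor, the growing end of the tooth, in C57BL/6 mice at the age of 6 weeks. Of the 6 libraries, 3 carry the genotype Gli1-CreER;Arid1a fl/fl (Arid1a cKO) and 3 the genotype Arid1a fl/fl (control). Both genotypes carried the floxed Arid1a alleles, and tamoxifen is given in the labels of all 6 samples, at 1.5 mg per 10 g body weight daily on 3 days at 1 month of age. CreER was thus the difference between the genotypes. Since control libraries carry no CreER, an effect of CreER itself cannot be told apart from loss of Arid1a. Gli1-CreER is a recombinase that tamoxifen switches on in Gli1-expressing cells, which include the mesenchymal stem cells of the tooth. Cells outside that lineage keep Arid1a, which encodes a DNA-binding subunit of SWI/SNF chromatin remodellers. Nothing in the labels says that the libraries came from separate animals, and p-values measure the spread between these libraries only.

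Potassium channels let potassium leave or enter the cell and so set the membrane potential, on which excitability, calcium entry and the movement of other ions depend. Pore subunits differ in what opens them: voltage, intracellular calcium or sodium, nucleotides, pH or stretch. Some pore-type subunits are electrically silent, in that they make no channel alone and alter the channels of the Kcnb subunits they join, and accessory subunits change gating and delivery to the membrane. In the growing tooth, potassium channels and pumps belong to the ion handling of the cells that lay down and mineralize enamel and dentin, and they also serve the nerve, vessel and immune cells of the pulp.

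Depth was 29922013 to 37908478 estimated counts in Arid1a cKO libraries and 27300932 to 32677240 in control libraries. Levels are given as CPM, counts scaled to a common library size after TMM adjustment. Arid1a, whose count covers exons outside the deleted part as well, had 136, 139 and 145 CPM in Arid1a cKO libraries, against 222, 249 and 223 CPM in control libraries (log2 fold change -0.72, SE 0.0677, edgeR adjusted p = 0.00802). Markers of the labelled tissue were present: all 6 dental mesenchyme, 9 dental epithelium and 3 odontoblast markers were measured, with the enamel gene Odam near 0 at a mean of 0.36 CPM in Arid1a cKO and 0.365 CPM in control. Arid1a cKO replicate 1 and control replicate 3 had Xist and almost no Y-linked counts, and the other 4 libraries had the reverse, so each genotype held animals of both sexes. In these same 2 libraries the summed level of the dental epithelium markers was highest, at 2770 CPM in Arid1a cKO replicate 1 and 4340 CPM in control replicate 3. It was 1260 and 1860 CPM in the other Arid1a cKO libraries and 1030 and 1120 CPM in the other control libraries.

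Most potassium channel genes were weakly expressed, and a few stood well above the rest. On a scale that allows genes to be compared, CPM per kb of exon, 32 of the 82 genes had a mean level of at least 1 and 20 were under 0.1. Kcnj15, an inward rectifier, was the highest, with a mean of 29.3 in Arid1a cKO and 33.3 in control. It was followed by the stretch-sensitive two-pore channel Kcnk2 (10.7 in Arid1a cKO and 14.4 in control), the strong inward rectifier Kcnj2 (10.3 in both) and the two-pore channel Kcnk1 (8.33 in Arid1a cKO and 9.49 in control). Their ranges over libraries met or overlapped for Kcnk2, Kcnj2 and Kcnk1, whose order is therefore not firm. Kcnj15 lay above all of them in every library.

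**Figure D1:**
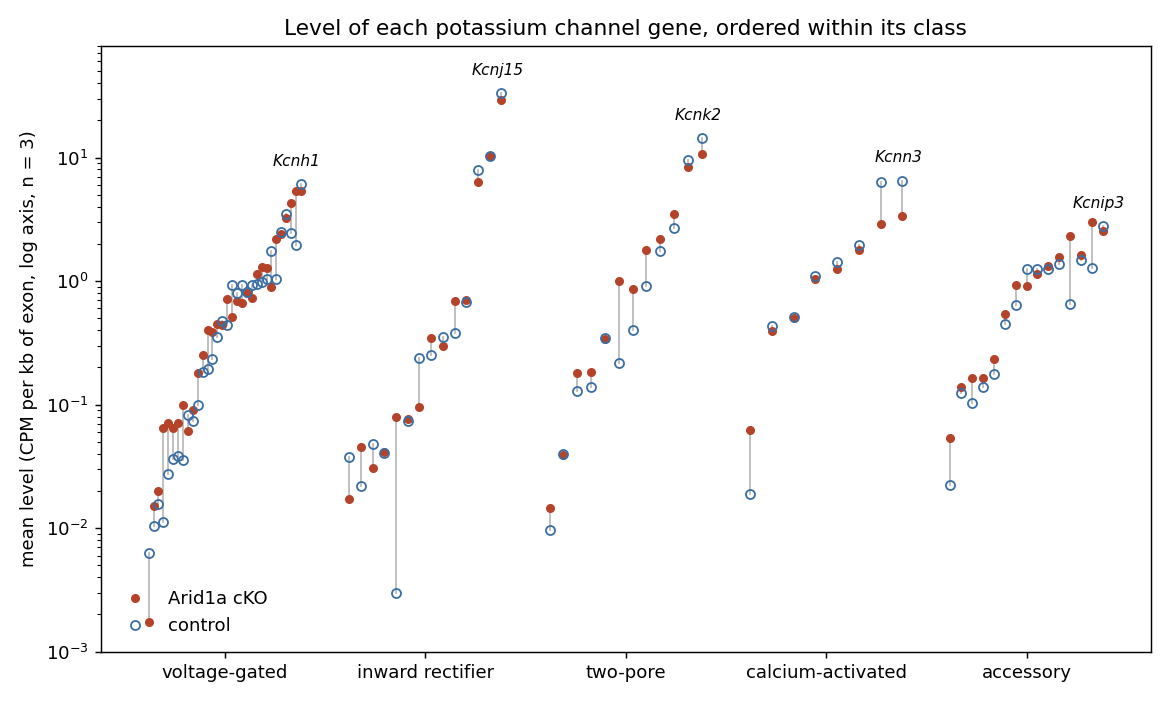
Mean level of each potassium channel gene in CPM per kb of exon on a log axis, with genes ordered by level within their class. Filled points are Arid1a cKO and open points control (n = 3 each), joined by a grey line, and the highest gene of each class is named. Kcnj15 reached 29.3 in Arid1a cKO and 33.3 in control.

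Between the genotypes, 5 potassium channel genes rose and 4 fell in Arid1a cKO. The 5 were the silent voltage-gated subunits Kcnf1 and Kcng1, the voltage-gated subunit Kcnq5, the two-pore gene Kcnk15 and the accessory subunit Kcnip2. The 4 included the voltage-gated subunit Kcnh2, the calcium-activated channel Kcnn3 and the sodium-activated channel Kcnt2. Of the 82 genes, 67 passed the filter on low counts and were tested, and 58 of those did not pass the threshold (adjusted p under 0.05 in the quasi-likelihood test of edgeR, adjusted by Benjamini-Hochberg over 19613 genes). In the filter 56 of the 67 reached its level in all 6 libraries, 6 in all Arid1a cKO but not all control libraries, and 1 in all control but not all Arid1a cKO libraries. The called Kcnk15 was among those 6. The 9 called genes were 13.4% of the tested members, beside 3.96% of all genes tested. The 5 that rose were 7.46% of the members, beside 1.5% of all genes, and the 4 that fell were 5.97%, beside 2.46%. The median log2 fold change was 0.14 over the tested members and 0.0043 over all genes tested. Among the 9 called genes the median absolute log2 fold change was 1.04, and over all 777 called genes it was 0.61. Both medians cover only genes that passed the test, and a weakly expressed gene needs a larger change to pass. They therefore do not show that potassium channel genes changed more than others. The libraries of the genotypes did not overlap in 21 of the 67 tested members (31.3%), beside 29.1% of all genes tested, a share close to the background with both directions together. By direction, Arid1a cKO lay above control in 16 of the 67 and below in 5, beside 13.8% and 15.3% of all genes tested. Some of the 16, Kcnk15 among them, and 1 of the 5 passed the filter through the genotype in which they are high. Their separation is no added support.

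**Figure D2:**
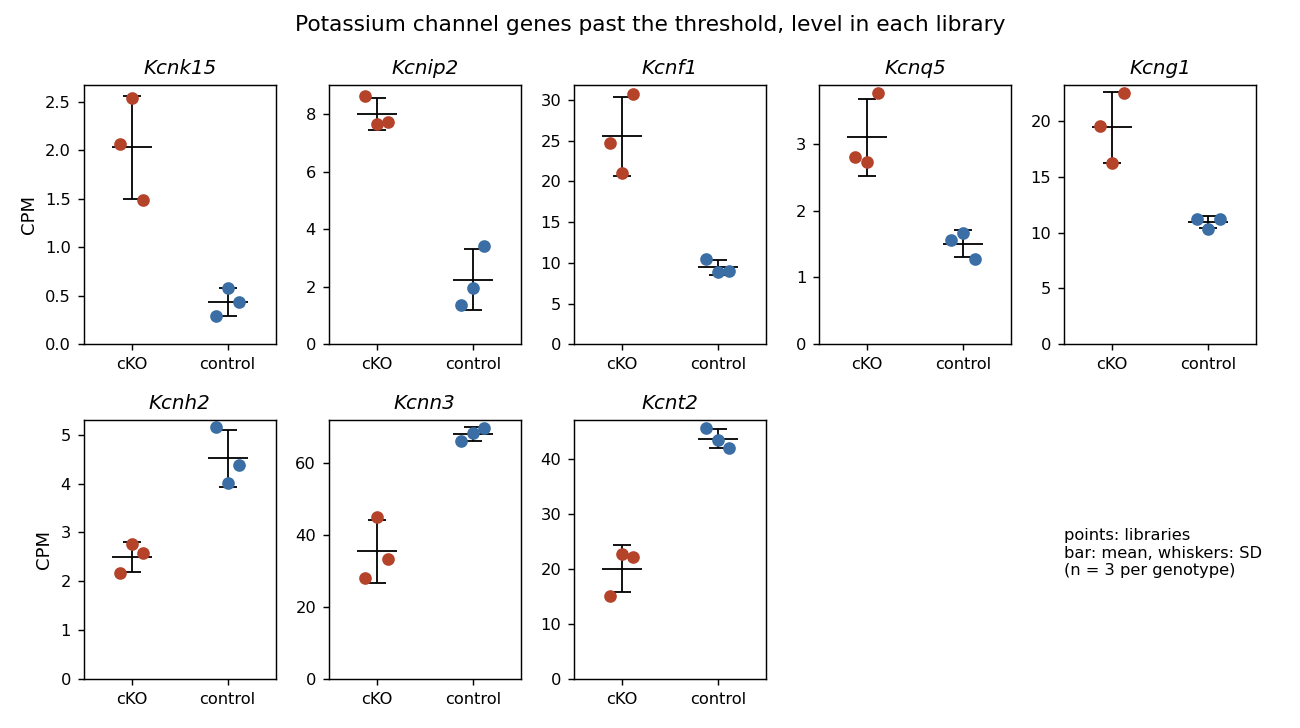
Level in CPM of 8 potassium channel genes past the threshold, with Arid1a cKO on the left and control on the right of each panel. Points are libraries, bars are means and whiskers SD (n = 3 each). The points of the genotypes are apart in all 8 panels.

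These calls rested on few libraries. Without Arid1a cKO replicate 1, 2 or 3 the number of members called was 6, 8 and 4, and without control replicate 1, 2 or 3 it was 1, 4 and 2, against 9 with all 6 libraries. The share of all genes called also fell in these fits, to 2.68%, 2.18% and 0.821% without Arid1a cKO replicate 1, 2 or 3 and to 0.802%, 1.75% and 0.93% without control replicate 1, 2 or 3. The 8 called without Arid1a cKO replicate 2 included Kcnj6 and Kcns1 (edgeR adjusted p = 0.0296 and 0.0499), which are not among the 9. Kcnj6 passed the filter of that fit through its Arid1a cKO libraries alone. Kcnf1 held in all 6 of these fits (adjusted p from 0.00988 to 0.039). Kcnk15 and Kcnt2 were lost without control replicate 1 or 3, with adjusted p of up to 0.0696 and 0.0593. Kcng1 and Kcnn3 were lost without any of the control replicates or Arid1a cKO replicate 3 (up to 0.0679 and 0.111). Kcnip2 was lost in every such fit other than that without control replicate 3 (up to 0.0824), and Kcnh2 and Kcnq5 were lost in all 6 (up to 0.129 and 0.122). The log2 fold changes of these genes kept their signs: that of Kcnf1 lay between 1.29 and 1.55, and that of Kcnh2 between -0.94 and -0.74. Wider ranges were those of Kcnip2, between 1.58 and 2.28, and Kcnn3, between -1.15 and -0.80. Since fewer libraries also lower the power, the loss of a call alone does not show a smaller difference.

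**Figure D3:**
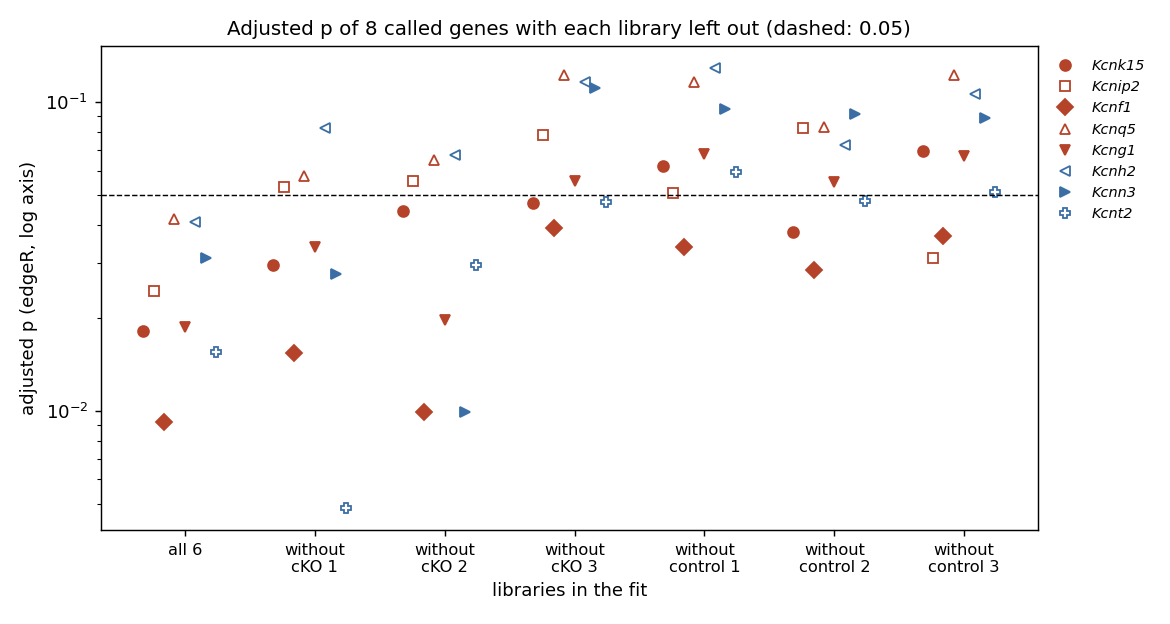
Adjusted p (edgeR, log axis) of 8 called genes with all 6 libraries and with each library left out in turn. Red marks genes higher and blue genes lower in Arid1a cKO, and the dashed line is 0.05. Kcnf1 stays under the line in every fit, at 0.039 or less.

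Sex did not follow genotype, but the 2 libraries with Xist allow a comparison within each sex. In the 4 libraries with Y-linked expression, 2 per genotype, the log2 fold changes of the 9 genes had the same signs as with all libraries, and Kcnip2 (2.23, adjusted p = 0.0279) and Kcnt2 (-0.97, adjusted p = 0.0228) passed by edgeR, where 0.896% of all genes tested did. The other 7 did not, with adjusted p between 0.0548 for Kcnf1 and 0.167 for Kcnh2. Between the 2 libraries with Xist, which allow no test, the log2 ratio of Arid1a cKO to control was 1.47 for Kcnf1, 1.33 for Kcnip2, 2.23 for Kcnk15, -1.47 for Kcnt2 and -1.32 for Kcnn3.

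Sequences just before the transcription start are shown for the 4 called genes whose RefSeq start lies within 50 bases of the start in the count table, since genes that moved with genotype invite a comparison of their promoters. Each is the 250 bases before the start, 5′ to 3′ on the strand of the gene, from RefSeq on GRCm38.p6. Capitals mark matches on either strand to the GC box (GGGCGG) or the CCAAT box (CCAAT), and no match overlapped another.
Kcnf1 (chr12:17176889-17177138, minus strand): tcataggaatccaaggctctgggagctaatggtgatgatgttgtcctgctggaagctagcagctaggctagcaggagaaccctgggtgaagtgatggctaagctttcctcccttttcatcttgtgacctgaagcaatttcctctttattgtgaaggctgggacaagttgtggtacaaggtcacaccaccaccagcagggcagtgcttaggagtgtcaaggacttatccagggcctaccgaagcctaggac
Kcnip2 (chr19:45816064-45816313, minus strand): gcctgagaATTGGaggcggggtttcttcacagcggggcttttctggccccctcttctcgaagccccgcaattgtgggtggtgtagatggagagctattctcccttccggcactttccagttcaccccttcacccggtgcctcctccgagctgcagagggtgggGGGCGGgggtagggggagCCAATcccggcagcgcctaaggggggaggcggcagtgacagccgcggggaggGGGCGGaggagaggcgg
Kcnq5 (chr1:21961943-21962192, minus strand): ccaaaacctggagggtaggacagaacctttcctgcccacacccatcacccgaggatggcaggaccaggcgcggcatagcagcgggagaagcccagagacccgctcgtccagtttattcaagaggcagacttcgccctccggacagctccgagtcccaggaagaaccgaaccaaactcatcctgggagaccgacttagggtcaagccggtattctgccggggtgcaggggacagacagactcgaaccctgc
Kcnn3 (chr3:89519914-89520163, plus strand): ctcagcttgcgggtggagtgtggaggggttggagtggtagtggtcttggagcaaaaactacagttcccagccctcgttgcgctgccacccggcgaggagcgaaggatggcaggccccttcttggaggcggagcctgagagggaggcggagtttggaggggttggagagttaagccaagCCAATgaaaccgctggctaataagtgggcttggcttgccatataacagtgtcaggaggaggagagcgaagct
Kcnip2 held 2 GC boxes and 2 CCAAT boxes, Kcnn3 held 1 CCAAT box 72 bases before its start, and Kcnf1 and Kcnq5 held neither. In base composition the Kcnf1 window had 1 CpG and 51.2% GC, that of Kcnip2 15 CpG and 66.8% GC, that of Kcnq5 14 and 60.8%, and that of Kcnn3 10 and 58.8%. The median was 58.8% GC over the member windows in the table and 52.4% over all its windows, so the GC content of Kcnf1 was close to the median of all windows. A second Kcnq5 window, at a start other than that of the count table, had 3 CpG, 44.4% GC and 1 CCAAT box. The TATA box (TATAAA), the AP-1 site (TGANTCA) and the GLI site (GACCACCCA) were also searched on both strands, and none of the 4 windows held them. Of 84 windows of 62 members in the RefSeq table, 47.6% held a GC box, 26.2% a CCAAT box, 3.57% a TATA box, 4.76% an AP-1 site and 0 a GLI site. Over all 32851 windows of that length the shares were 32.7%, 33.8%, 12.4%, 6.75% and 0.225%. Some genes have several windows, and a match is a description of letters only.

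Among voltage-gated genes, 3 rose and 2 fell in Arid1a cKO, 22 were tested without passing and 5 were too low to test. The median log2 fold change of the 27 tested was 0.30. Over all genes tested 1.5% rose and 2.46% fell, which is the background for the counts of each class. Kcnf1 (chromosome 12, 17172100 to 17176888, mm10, minus strand, protein coding) encodes a silent subunit that joins Kcnb channels. It had 24.8, 21.1 and 30.7 CPM in Arid1a cKO libraries, against 10.4, 8.91 and 8.94 CPM in control libraries. Every Arid1a cKO library lay far above every control library. The fold was 2.70 (log2 fold change 1.43, SE 0.148, edgeR adjusted p = 0.00919). Kcng1 (chromosome 2, 168260117 to 168281736, minus strand), another silent partner of Kcnb channels, had 19.6, 16.2 and 22.6 CPM in Arid1a cKO libraries, against 11.3, 10.4 and 11.2 CPM in control libraries. The control libraries lay close together and below all Arid1a cKO libraries, a 1.78-fold difference (log2 fold change 0.83, SE 0.128, edgeR adjusted p = 0.0187).

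The remaining silent subunits give the setting of these rises. Kcns1 had 7.23, 3.60 and 6.89 CPM in Arid1a cKO libraries, against 1.94, 3.55 and 2.92 CPM in control libraries (log2 fold change 1.08, edgeR adjusted p = 0.111), and Arid1a cKO replicate 2 lay barely above the highest control library. Kcns3 (0.40, 0.445), Kcng3 (0.42, 0.641) and Kcng2 (0.00, 0.993) did not pass either. The summed level of the 6 silent subunits, a grouping made after their values were seen, was 14.4, 11.5 and 16.7 CPM per kb of exon in Arid1a cKO libraries, against 6.87, 7.91 and 7.46 in control libraries. That sum includes the called Kcnf1 and Kcng1, its most abundant members, and so is no added support for a rise of silent subunits. The summed level of the whole voltage-gated class was 34.6, 32.0 and 36.1 CPM per kb of exon in Arid1a cKO libraries, against 29.2, 27.5 and 30.1 in control libraries. Without Kcnf1 and Kcng1 it was 25.1, 24.0 and 24.7 in Arid1a cKO libraries, against 24.6, 23.3 and 25.7 in control libraries, and the genotypes overlapped.

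The Kcnq subfamily carries slowly activating currents that damp excitability. Kcnq5 (chromosome 1, 21398403 to 21961942, minus strand) had 2.80, 2.73 and 3.76 CPM in Arid1a cKO libraries, against 1.56, 1.67 and 1.28 CPM in control libraries (log2 fold change 1.04, SE 0.215, edgeR adjusted p = 0.0418). It missed the threshold with limma-voom (adjusted p = 0.0516), and an exon of it overlaps a non-coding gene on the other strand. Kcnq1 (log2 fold change -0.10, adjusted p = 0.846) and Kcnq3 (0.86, 0.551) did not pass.

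Kcnh2 (chromosome 5, 24319589 to 24351604, minus strand), the channel that repolarizes the heartbeat, had 2.16, 2.76 and 2.57 CPM in Arid1a cKO libraries, against 5.16, 4.02 and 4.38 CPM in control libraries. All Arid1a cKO libraries were lower (log2 fold change -0.86, SE 0.176, edgeR adjusted p = 0.0409). Its relative Kcnh1, the most abundant voltage-gated gene, averaged 39.2 ± 9.2 CPM in Arid1a cKO and 44.4 ± 8.96 CPM in control (SD, n = 3 each), and the difference was within the spread (log2 fold change -0.18, SE 0.217, edgeR adjusted p = 0.681). The axonal channels Kcna1 and Kcna2 had 2.04, 1.30 and 2.24 and 7.86, 7.30 and 10.4 CPM in Arid1a cKO libraries, against 0.414, 1.48 and 1.42 and 3.63, 7.03 and 5.22 CPM in control libraries. Neither passed (edgeR adjusted p = 0.376 and 0.167). Kcna5, Kcna1 and Kcna6 neighbour each other on chromosome 6, with gaps of 105 and 61.9 kb, and had log2 fold changes of 0.88, 0.75 and 0.29, none past the threshold. Neighbours did not always share a sign: Kcna2 and the member nearest to it, 63.1 kb away on chromosome 3, had opposite signs.

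**Figure D4:**
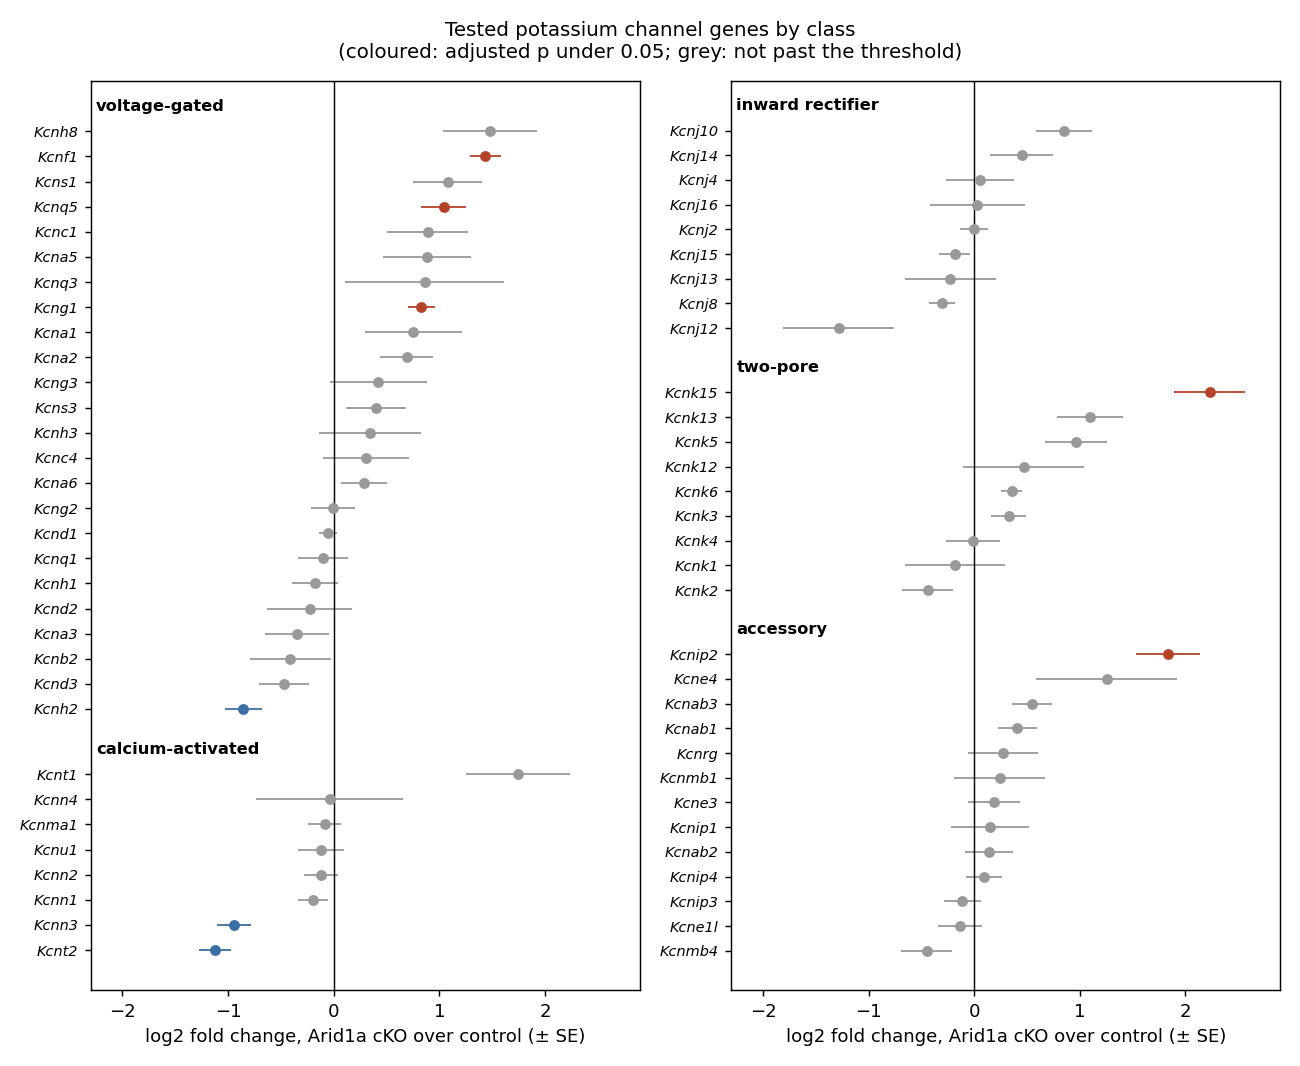
Log2 fold change (Arid1a cKO over control, with SE) of 63 tested protein-coding members by class. Coloured points passed an adjusted p of 0.05, red for higher and blue for lower in Arid1a cKO. The 5 red points lie in 3 classes and the 3 blue points in 2.

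The inward rectifiers as a class held no call, with 9 tested, 5 too low to test and a median log2 fold change of 0.00. Kcnj15 had 157, 231 and 167 CPM in Arid1a cKO libraries, against 221, 219 and 192 CPM in control libraries, with Arid1a cKO replicate 2 above every control library (log2 fold change -0.18, SE 0.149, edgeR adjusted p = 0.514). Kcnj2 had 60.5, 46.3 and 61.8 CPM in Arid1a cKO libraries, against 61.1, 48.1 and 59.3 CPM in control libraries, and its means were 56.2 CPM in both genotypes (SE of the log2 fold change 0.135). Kcnj8, the pore of the ATP-sensitive channel of pericytes and smooth muscle, averaged 16.2 ± 2.13 CPM in Arid1a cKO and 20.1 ± 2.21 CPM in control (SD, n = 3 each; log2 fold change -0.30, edgeR adjusted p = 0.203). Abcc9, the sulfonylurea receptor that completes that channel, had 62.0, 59.2 and 60.4 CPM in Arid1a cKO libraries, against 71.9, 103.5 and 99.4 CPM in control libraries. It was lower in all 3 but missed the threshold (log2 fold change -0.60, SE 0.132, edgeR adjusted p = 0.0548). Kcnj10, the glial inward rectifier, had the smallest p of the class, at 4.86, 3.70 and 2.64 CPM in Arid1a cKO libraries, against 1.78, 1.88 and 2.55 CPM in control libraries. The lowest Arid1a cKO library lay barely above the highest control library (log2 fold change 0.85, SE 0.265, edgeR adjusted p = 0.114).

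Of the two-pore genes, which carry background potassium currents, 1 of 9 tested rose, 0 fell, and 3 were too low to test (median log2 fold change 0.36). Kcnk15 (chromosome 2, 163853651 to 163859746, plus strand) belongs by sequence to the acid-sensitive subfamily. It had 2.06, 2.54 and 1.48 CPM in Arid1a cKO libraries, against 0.287, 0.579 and 0.438 CPM in control libraries. Of its control libraries 2 reached the level of the filter. At least 3 libraries were required, so Kcnk15 was tested through the genotype in which it is high, and its separation is no added support. The level was low but apart in every library, a 4.68-fold rise (log2 fold change 2.23, SE 0.337, edgeR adjusted p = 0.0181). Kcnk2 had 49.7, 57.5 and 50.7 CPM in Arid1a cKO libraries, against 94.8, 47.1 and 72.2 CPM in control libraries. Control replicate 2 lay below all Arid1a cKO libraries, and the difference did not pass (log2 fold change -0.44, SE 0.242, edgeR adjusted p = 0.348). Kcnk1 averaged 18.6 ± 9.18 CPM in Arid1a cKO and 21.2 ± 9.01 CPM in control (SD, n = 3 each; log2 fold change -0.18, edgeR adjusted p = 0.86). It was highest in the 2 libraries with Xist and the most dental epithelium marker RNA. The level was 27.7 CPM in Arid1a cKO replicate 1 and 31.5 CPM in control replicate 3. With a dental epithelium marker score as covariate the log2 fold change of Kcnk1 was -0.40 (edgeR adjusted p = 0.16). With sex-linked expression as covariate it was -0.19 (edgeR adjusted p = 0.714). These fits compare the genotypes, and the part of either covariate in the spread was not tested. Kcnk6 had 15.8, 13.5 and 13.9 CPM in Arid1a cKO libraries, against 11.8, 10.8 and 11.1 CPM in control libraries, which were separate without passing (log2 fold change 0.36, SE 0.0981, edgeR adjusted p = 0.0867). Kcnk13 (log2 fold change 1.09, edgeR adjusted p = 0.0927) and Kcnk5 (0.96, 0.108) were likewise separate without passing. DESeq2 called these 2 (adjusted p = 0.0304 and 0.0196) and Kcns1 (0.0158), for 12 members in all (10.5% of all genes tested by DESeq2 were called).

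Calcium-activated genes and their relatives held 2 falls and 0 rises among 8 tested, with a median log2 fold change of -0.12. Kcnn3 (chromosome 3, 89520164 to 89675132, plus strand), a small-conductance channel opened by calcium through calmodulin, had 28.0, 45.0 and 33.3 CPM in Arid1a cKO libraries, against 66.0, 68.4 and 69.7 CPM in control libraries. The Arid1a cKO libraries scattered and the control libraries did not, and the fall was 1.92-fold (log2 fold change -0.94, SE 0.162, edgeR adjusted p = 0.0312). Kcnt2 (chromosome 1, 140246158 to 140612067, plus strand), a channel opened by intracellular sodium, had 15.2, 22.8 and 22.3 CPM in Arid1a cKO libraries, against 45.7, 43.6 and 42.2 CPM in control libraries. It fell 2.18-fold (log2 fold change -1.12, SE 0.151, edgeR adjusted p = 0.0155). An exon of Kcnt2 overlaps an antisense non-coding gene.

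Kcnn3 and Kcnt2 were the most abundant genes of that class, so its summed level followed them. It was 9.84, 13.01 and 11.1 CPM per kb of exon in Arid1a cKO libraries, against 19.3, 17.8 and 17.8 in control libraries. Without Kcnn3 and Kcnt2 the sum was 4.95, 5.39 and 4.72 in Arid1a cKO libraries, against 6.34, 4.96 and 4.97 in control libraries. Kcnma1, the large-conductance channel, averaged 17.5 ± 2.88 CPM in Arid1a cKO and 18.5 ± 3.09 CPM in control (SD, n = 3 each; log2 fold change -0.08, edgeR adjusted p = 0.801). The other Kcnn genes did not pass: Kcnn1 had a log2 fold change of -0.19 (edgeR adjusted p = 0.459), Kcnn2 of -0.12 (0.716) and Kcnn4 of -0.04 (0.982). The second sodium-activated gene, Kcnt1, was low and had the opposite sign to Kcnt2, at 0.764, 0.487 and 0.527 CPM in Arid1a cKO libraries and 0.0637, 0.181 and 0.292 CPM in control libraries (log2 fold change 1.74, SE 0.493, edgeR adjusted p = 0.0922). It passed the filter on low counts through its Arid1a cKO libraries alone.

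**Figure D5:**
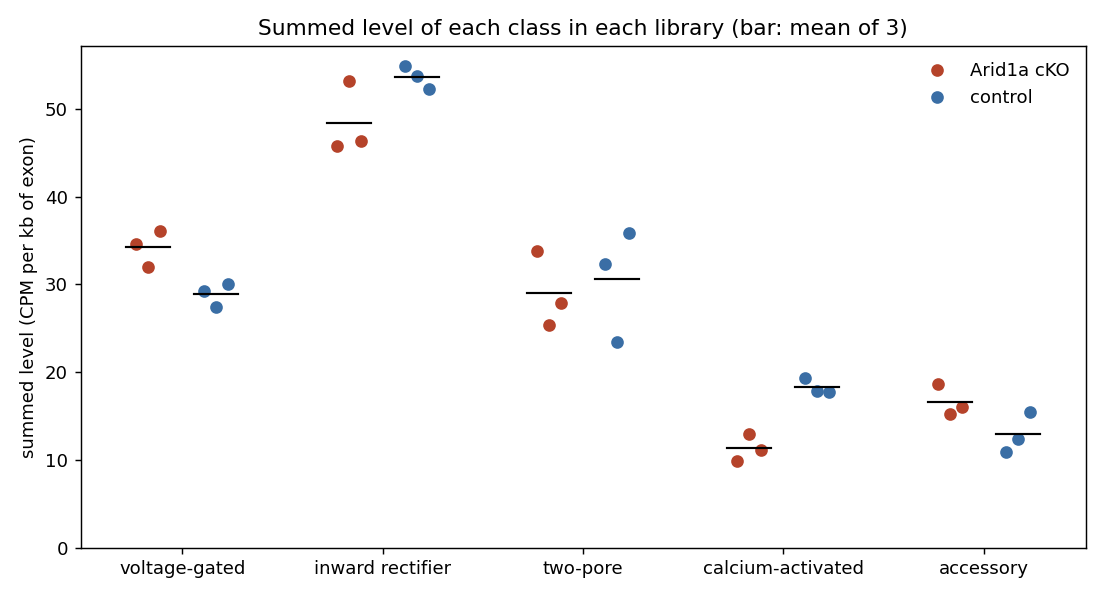
Summed level of each class in CPM per kb of exon, with Arid1a cKO on the left and control on the right of each class. Points are libraries and bars means of 3. The calcium-activated sums lie between 9.84 and 13.01 in Arid1a cKO and between 17.8 and 19.3 in control.

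Of the accessory subunits 1 of 13 tested rose, 0 fell and 2 were too low to test (median log2 fold change 0.19). Kcnip2 (chromosome 19, 45791839 to 45816061, minus strand), a calcium-binding subunit of Kcnd channels, had 8.65, 7.65 and 7.74 CPM in Arid1a cKO libraries, against 1.37, 1.96 and 3.43 CPM in control libraries. Here the Arid1a cKO libraries lay close together and the control libraries scattered, with control replicate 3 the highest of them. The rise was 3.57-fold (log2 fold change 1.84, SE 0.304, edgeR adjusted p = 0.0245). The Kcnd pore subunits that it binds did not pass: Kcnd1 had a log2 fold change of -0.05 (edgeR adjusted p = 0.772), Kcnd2 of -0.23 (0.789) and Kcnd3 of -0.47 (0.296). Kcnip3, a relative that also acts as a calcium-regulated transcriptional repressor, averaged 9.05 ± 1.84 CPM in Arid1a cKO and 9.81 ± 1.61 CPM in control (SD, n = 3 each; log2 fold change -0.11, edgeR adjusted p = 0.758). Kcne4, a single-span subunit that inhibits Kcnq1 channels, had 7.99, 6.03 and 9.92 CPM in Arid1a cKO libraries, against 0.637, 3.62 and 5.84 CPM in control libraries. The control values spanned so wide a range that the difference did not pass (log2 fold change 1.25, SE 0.67, edgeR adjusted p = 0.336). Kcnab2, a cytoplasmic subunit of Kcna channels, averaged 9.04 ± 3.13 CPM in Arid1a cKO and 8.22 ± 0.512 CPM in control (SD, n = 3 each; log2 fold change 0.14, edgeR adjusted p = 0.767).

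The non-coding RNA Kcnq1ot1 (chromosome 7, 143203458 to 143296549, minus strand) is transcribed within Kcnq1 on the opposite strand and is known for imprinting the neighbouring genes. It had 98.3, 180.5 and 159 CPM in Arid1a cKO libraries, against 156, 226 and 209.6 CPM in control libraries, and did not pass (log2 fold change -0.43, SE 0.25, edgeR adjusted p = 0.366). Whether the counting used strand is not stated in the labels, so reads of Kcnq1 and Kcnq1ot1 cannot be told apart where they overlap.

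Genes that work beside potassium channels were described from lists of their own, to be read beside 1.5% of all genes tested that rose and 2.46% that fell. Of 13 partners outside the Kcn symbols (11 in the table, 10 tested), 1 rose and 0 fell (median log2 fold change 0.39). It was Lrrc38, an auxiliary subunit of the large-conductance Kcnma1 channel, at 1.04, 1.27 and 1.42 CPM in Arid1a cKO libraries, against 0.287, 0.181 and 0.401 CPM in control libraries (log2 fold change 2.09, SE 0.336, edgeR adjusted p = 0.0208). Lrrc38 reached the level of the filter, 0.319 CPM, in 1 control library and all 3 Arid1a cKO libraries, so it was tested through the genotype in which it is high, and the call is no support for a change in this list. Of 12 tested potassium pump and cotransporter genes 0 rose and 2 fell (median -0.23). Among them was Atp1b2, a subunit of the sodium-potassium ATPase. It had 18.9, 19.8 and 21.6 CPM in Arid1a cKO libraries, against 37.2, 33.3 and 37.6 CPM in control libraries (log2 fold change -0.84, SE 0.0809, edgeR adjusted p = 0.00802).

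Of 16 tested voltage-gated sodium and calcium channel genes 1 rose and 2 fell (median log2 fold change 0.11), beside 1.5% and 2.46% of all genes tested. The called genes encode low-voltage-activated T-type calcium channels. Cacna1g had 174, 224 and 208 CPM in Arid1a cKO libraries, against 263, 330.4 and 295 CPM in control libraries (log2 fold change -0.55, edgeR adjusted p = 0.047). Cacna1h had 71.9, 101 and 90.7 CPM in Arid1a cKO libraries, against 128, 142 and 132 CPM in control libraries (-0.61, 0.0396). Cacna1i, far lower, had 1.55, 1.24 and 1.71 CPM in Arid1a cKO libraries, against 0.51, 0.109 and 0.182 CPM in control libraries (2.44, 0.0347). Cacna1i likewise reached the level of the filter in 1 control library, and was tested through its Arid1a cKO libraries.

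Several cell types of the pulp use the genes above, and in bulk RNA a change in the number of cells of a type cannot be told apart from a change in RNA per cell. The summed level of 7 Schwann cell markers was 186, 115 and 139 CPM in Arid1a cKO libraries, against 31.2, 96.9 and 88.5 CPM in control libraries. All Arid1a cKO libraries were higher, and 0 of the 7 markers passed the edgeR test. Control replicate 1, lowest in these markers, was also lowest in Kcna1, Kcna2, Kcne4 and Kcnip2. That library was likewise lowest in the smooth muscle markers Acta2 (66.1 CPM), Tagln (34.6 CPM) and Myh11 (27.3 CPM). In Rgs5, Cspg4, Pdgfrb and Notch3, listed with them, it was not the lowest. The part of Schwann cell or smooth muscle RNA in those potassium channel levels was not tested. Of 7 neuronal markers 5 were in the table and 4 tested, 1 of which rose (Syt1), and their sums overlapped, at 48.9 to 73.9 CPM in Arid1a cKO and 34.2 to 52.2 CPM in control. Of 7 pericyte and smooth muscle markers 1 rose (Myh11) and 2 fell (Pdgfrb and Notch3), with sums of 1030 to 1260 CPM in Arid1a cKO and 1140 to 1280 CPM in control. The 6 dental mesenchyme markers summed to 2030 to 2220 CPM in Arid1a cKO and 2370 to 2900 CPM in control, with 1 of 6 lower (Msx2). Among 9 dental epithelium markers 1 rose (Epcam). With a score of these epithelium markers as a covariate all 9 potassium channel calls held, with adjusted p between 0.0114 and 0.047, and Kcnk5 was called in addition (0.045), beside 4.81% of all genes tested in that fit.

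Of the 15 members too low to test, no library had more than 43 counts. Kcnj6, an inward rectifier gated by G proteins, had about 43, 6 and 17 counts in Arid1a cKO libraries, against 1, 1 and 0 counts in control libraries, with most of them in Arid1a cKO replicate 1. Kcnh5 had 14, 6 and 8 counts in Arid1a cKO libraries, against 2, 1 and 1 counts in control libraries. With no filter neither passed (edgeR adjusted p = 0.0546 for Kcnj6 and 0.0808 for Kcnh5), and 0 of these 15 did. Kcnj6 was called when Arid1a cKO replicate 2, its lowest Arid1a cKO library, was left out (adjusted p = 0.0296). In that fit it passed the filter through its remaining Arid1a cKO libraries alone, so that call is no added support. Kcnj6 and Kcnh5 were picked out after their values were seen.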

How the data were processed

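Per the submitters' processing notes, the tools were STAR 2.6.1d and Partek and the build mm10, and per the labels' protocols single-end reads of 75 cycles came from RNA with integrity numbers above 9.0. Neither annotation, library kit nor strand setting is stated in the sources used. The authors deposited estimated counts for 25703 genes and a normalized signal table for 21456 genes, in which each value is the count, plus 1, over a factor common to its library (within 0.000674%). The sources used do not name that normalization.

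Counts were rounded, filtered with filterByExpr (minimum count 10, which is 0.319 CPM in at least 3 libraries), scaled by TMM and compared with the edgeR quasi-likelihood test (two-sided, robust) on all 19613 genes left, with Benjamini-Hochberg adjustment and a threshold of 0.05. SE is |log2 fold change| over the root of F. Exon lengths and overlaps came from GENCODE M21, which held all 82 members, 81 with the same start. Ends are the deposited stop minus 1, which equals the M21 end for 81. The spread between libraries limits precision (biological coefficient of variation 15.8%). Every pair of libraries differed beyond sampling noise (chi-square per degree of freedom at least 29.3). Replicate numbers follow accession order and pair nothing.

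Members, gene lists and rules were chosen with earlier results of these data known. Named are all members past the threshold, the 3 with the highest mean CPM and the 1 with the smallest p in each class, and Kcnq1ot1, and others where a count or a partner called for it. Results for some of these genes are not reported here. The test was tested on simulated data. Of genes changed 1.5-fold, 2-fold, 4-fold and 8-fold (50 each) it recovered 40%, 60%, 84% and 96%. Of 155 calls there, 15 were of genes that had not been changed. Versions were R 4.3.3 with edgeR 4.0.16, DESeq2 1.42.0 and limma 3.58.1, and Python 3.11.15 with matplotlib 3.10.9.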

Additional observations from a re-analysis of the deposited data

How the results depend on the processing

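With all 6 libraries 9 members were called, 5 higher and 4 lower. The count was 8 to 10 under RLE, upper quartile and library size scaling, unrounded counts, no filter, a minimum of 1 CPM in every library, robust estimation off, limma-voom, limma on the authors' normalized table (log2, pseudocounts 1 and 0.5), and the dental epithelium and sex-linked covariates. DESeq2 called 8 higher and 4 lower, 12 in all. In the 4 libraries with Y-linked expression, a choice made after seeing the data, 1 was higher and 1 lower, 2 in all. With each library left out in turn the total ranged from 1 to 8, those higher from 1 to 5 and those lower from 0 to 3. These fits hold fewer samples, and the cause was not tested otherwise. Each of the 8 called genes given here kept its sign in all fits where it had a value. Kcnk15 did not pass the filter of 1 CPM in all libraries.

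Signs changed only for genes whose difference was within the spread. Kcnj2, at 0.00, had log2 fold changes of 0.0031 (RLE), 0.0203 (upper quartile), 0.0307 (library size), 0.0063 (no filter), 0.0148 (1 CPM filter), 0.0033 (DESeq2), 0.0134 and 0.0135 (limma with pseudocounts 1 and 0.5), and -0.0871 to 0.1213 with a library left out. With a library left out the log2 fold changes ranged from -0.3405 to 0.0032 for Kcnh1, -0.595 to 0.2233 for Kcnk1, -0.1775 to 0.0597 for Kcnma1, -0.2951 to 0.0341 for Kcnip3 and -0.1843 to 0.2971 for Kcnab2. In the 4 libraries with Y-linked expression that of Kcnab2 was -0.14. The cause was not tested.

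No paired analysis was possible because the sample titles of the genotypes share only 1 number. With 3 libraries per genotype, missing the threshold does not show that the levels of the other 58 tested members were alike.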
